A study of Mus musculus with 9 samples.

Results

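The receptors of interleukin-4 and interleukin-13 and the signaling genes behind them were followed in mouse lung. The 10 genes were Il4ra, Il13ra1, Il13ra2, Il2rg, Stat6, Jak1, Jak3, Socs1, Socs3 and Cish, chosen by symbol from the 55851 genes of the expression table. All 10 matched a single gene identifier, and all 10 passed the filter on low values. RNA of lung cells from female C57BL/6J mice was sequenced in 9 libraries, 3 in each of 3 groups. The DJ-1 KO OVA group, with libraries DJ1_KO_OVA_263, DJ1_KO_OVA_266 and DJ1_KO_OVA_267, came from DJ-1 knockout mice challenged with ovalbumin, a protein used to provoke allergic airway inflammation. WT OVA libraries (replicates 5, 6 and 9) came from wild-type mice challenged with ovalbumin, and WT PBS libraries (replicates 1, 2 and 3) from wild-type mice given phosphate-buffered saline in its place. The time label was 7 weeks for every library. The labels give no knockout group challenged with saline, no batch, no age and no construction of the knockout allele, and they do not say whether a library is a single animal. The p-values therefore measure the spread between these libraries, which may be technical.

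Interleukin-4 and interleukin-13 are cytokines of type 2 immunity that share a receptor chain, interleukin-4 receptor alpha (Il4ra). Paired with the common gamma chain (Il2rg), it forms a receptor for interleukin-4 found mainly on blood cells, and paired with Il13ra1 it forms a receptor for both cytokines that is present on epithelium, fibroblasts and macrophages. Both complexes activate Janus kinases bound to the receptor tails, which phosphorylate the transcription factor STAT6. In the airway this pathway is known for driving mucus cell differentiation and alternative activation of macrophages. Il13ra2 binds interleukin-13 tightly, has a short cytoplasmic tail and is known as a decoy receptor, while Socs1, Socs3 and Cish encode feedback inhibitors that are induced by cytokine signaling.

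The promoter sequences of 2 genes that passed the test in the challenged lungs are shown first, because both genes are known to be induced by cytokines. Each is the 250 bases before the RefSeq transcription start, written 5′ to 3′ on the gene's strand (GRCm38.p6). The window of Il13ra2 is chrX:147429193-147429442, minus strand, and that of Socs1 is chr16:10785537-10785786, minus strand. Capitals mark a pair of GAAA repeats with 2 bases between them, a pattern bound by interferon regulatory factors that was added after the Socs1 window had been read.
Il13ra2: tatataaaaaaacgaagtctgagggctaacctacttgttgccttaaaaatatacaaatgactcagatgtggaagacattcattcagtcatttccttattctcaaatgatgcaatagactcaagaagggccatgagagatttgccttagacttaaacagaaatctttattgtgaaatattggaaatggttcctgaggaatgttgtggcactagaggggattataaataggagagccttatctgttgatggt
Socs1: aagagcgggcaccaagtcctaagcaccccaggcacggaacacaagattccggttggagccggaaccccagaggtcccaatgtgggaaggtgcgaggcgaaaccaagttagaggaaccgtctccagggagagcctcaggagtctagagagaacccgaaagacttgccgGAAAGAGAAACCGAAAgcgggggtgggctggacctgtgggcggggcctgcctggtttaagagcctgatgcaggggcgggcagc

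The Socs1 window held 2 overlapping matches to the paired GAAA pattern, starting 83 and 77 bases before the transcription start. On either strand that pattern was present in a promoter window of the same length for 3.46% of 27025 mouse genes, and 0.211% had 2 or more in a window. Because the pattern was taken from the Socs1 window, its presence there was fixed in advance. The palindromic STAT pattern TTCNNNGAA was found for 8.13% of these genes, and the form with 1 more base between TTC and GAA, which STAT6 prefers, for 6.76%. Among the windows of the 10 genes, TTCNNNGAA was matched once, in Socs3, 154 bases before the RefSeq start, and the wider form was not matched. The windows of Socs3 and Cish lay wholly (250 bases) inside the gene as annotated in the expression table. Those of Il4ra, Jak3 and Jak1 lay partly inside it (151, 87 and 59 bases). The bases before the annotated genes of Socs3 and Cish were therefore not searched. The Socs3 match is shown with 10 bases on each side, the 9 matched bases in capitals.
Socs3: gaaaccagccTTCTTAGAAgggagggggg
These are matches of letters in a short window, and binding was not measured.

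Park7, which encodes DJ-1, was at 3.96, 7.29 and 3.97 FPKM in the DJ-1 KO OVA libraries, in the order above, against 57.9, 53.1 and 60.5 FPKM in the WT OVA libraries and 49.6, 53.8 and 36.7 FPKM in the WT PBS libraries. Values per library keep this order throughout. FPKM are reads scaled by gene length and library size. Genes can be compared on this scale only as far as the length used fits the transcript, which it does not for Cish (below). The libraries held 20812192 to 29080130 reads recovered from the FPKM. All libraries contained transcripts of alveolar and airway epithelium, endothelium and leukocytes, and the markers with 0 reads in some libraries were Epx of eosinophils, in 6 libraries, and Pdpn of alveolar type 1 cells, also in 6. The DJ-1 KO OVA libraries differed among themselves in cell type markers. The 7 T cell markers summed to 519, 171 and 191 FPKM, highest in DJ1_KO_OVA_263, and the 7 monocyte and interstitial macrophage markers to 209, 1020 and 621 FPKM, lowest in that library. DJ1_KO_OVA_266 was highest in neutrophil markers (1350, 4310 and 1390 FPKM), B cell markers (85.4, 215 and 91.2 FPKM) and endothelial markers (21.3, 158 and 52.6 FPKM). The WT OVA libraries differed too, and replicate 6 was lowest in the 5 goblet cell markers (608, 78.2 and 549 FPKM) and in Il13 (2.81, 0.761 and 1.94 FPKM). In WT PBS the goblet cell markers summed to 12.6, 23.8 and 13.9 FPKM. The library sizes behind the FPKM followed median-of-ratios size factors, and the FPKM sums were 308542 to 472548 in DJ-1 KO OVA, 570483 to 602047 in WT OVA and 392285 to 551459 in WT PBS.

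In DJ-1 KO OVA lungs compared with WT OVA lungs, 5 of the 10 genes rose and 0 fell. The 5 were the decoy receptor Il13ra2, the kinases Jak1 and Jak3, and the feedback inhibitors Socs1 and Cish, with fitted folds of 1.75 to 2.69. The receptor chains Il4ra, Il2rg and Il13ra1, the transcription factor Stat6 and the inhibitor Socs3 did not pass. The threshold was an adjusted p of 0.05 by the method of Benjamini and Hochberg over all 17716 genes tested (limma), which 14.2% of those genes passed in this comparison, 5.93% as higher and 8.24% as lower. The difference was positive for 9 of the 10 genes, where it was for 50% of all genes, and 7 had an unadjusted p below 0.05, where 35.2% of all genes did. The groups did not overlap for 8 of the 10 genes, 7 higher and 1 lower, against 37.2% of all genes, 18.4% higher and 18.8% lower. The median log2 difference of the 10 genes was 0.82, against 0 over all genes tested.

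**Figure D1:**
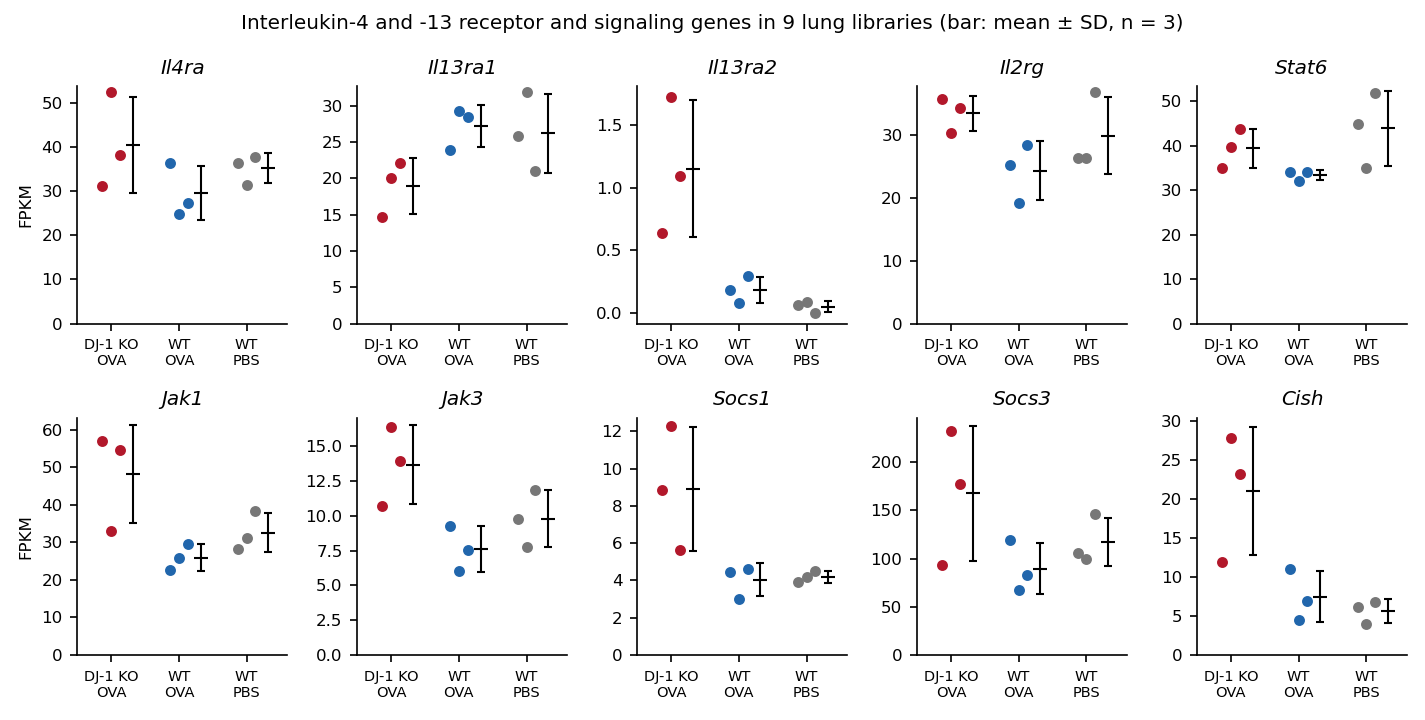
FPKM of the 10 genes in each library (points), with the mean and SD of each group (bars, n = 3), in DJ-1 KO OVA, WT OVA and WT PBS. The 3 DJ-1 KO OVA libraries lie above all WT OVA libraries for Il13ra2, Il2rg, Stat6, Jak1, Jak3, Socs1 and Cish, and below all of them for Il13ra1.

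Among the receptor chains, the largest difference was in Il13ra2 (ENSMUSG00000031289, chromosome X, 147383476 to 147429192, minus strand, GRCm38). Its level was 0.637, 1.73 and 1.09 FPKM in DJ-1 KO OVA, against 0.183, 0.0765 and 0.29 FPKM in WT OVA and 0.0616, 0.0854 and 0 FPKM in WT PBS. Each DJ-1 KO OVA library was above each wild-type library. The reads behind these values were 50, 93 and 61 in DJ-1 KO OVA, 8, 4 and 13 in WT OVA and 3, 4 and 0 in WT PBS, and a count of 0 allows a level of up to 0.0428 FPKM in that library (3 reads, counting error only). Il13ra2 rose in DJ-1 KO OVA relative to WT OVA by 1.23 on the log2(FPKM + 0.5) scale (SE 0.25, adjusted p = 0.018, limma), a fitted fold of 2.35. The ratio of mean FPKM was 6.30, because the added 0.5 compresses changes at low levels. With 0.1 added in place of 0.5 the log2 difference was 2.12 (adjusted p = 0.024, limma), and on recovered reads with limma-voom it was 2.62 (adjusted p = 0.028).

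Il13ra1 (ENSMUSG00000017057, chromosome X, 36112110 to 36171259), the signaling partner chain for interleukin-13, differed in the other direction. It was at 14.6, 20 and 22 FPKM in DJ-1 KO OVA and at 23.9, 29.2 and 28.5 FPKM in WT OVA. All DJ-1 KO OVA libraries were below all WT OVA libraries, and the log2 difference of -0.53 (SE 0.22, adjusted p = 0.12, limma) did not pass. The direction of Il13ra1 depended on the scaling: after rescaling to equal FPKM sums its difference was 0.08, and the median over all genes then stood at 0.459. The ratio of Il13ra2 to Il13ra1 within a library does not depend on the scaling, apart from the added 0.5. Its log2 value averaged -3.59 ± 0.335 in DJ-1 KO OVA and -5.35 ± 0.295 in WT OVA (SD, n = 3 each; difference 1.76, exact permutation test, two-sided p = 0.1, the smallest that 3 against 3 can give, and 0.2 when adjusted over 12 ratio comparisons). The 3 DJ-1 KO OVA libraries had the 3 highest ratios of the 9. Il13ra2 was below 0.5 FPKM in every wild-type library, so the added 0.5 made up most of the numerator there. WT PBS replicate 3, with 0 Il13ra2 reads, had a log2 ratio of -5.42, above the -5.79 of replicate 2 with 4 reads. Differences among the wild-type ratios therefore say little about Il13ra2.

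Il4ra (ENSMUSG00000030748, chromosome 7, 125552120 to 125579474), the chain common to both receptors, was at 31.1, 52.4 and 38.1 FPKM in DJ-1 KO OVA and at 36.5, 24.8 and 27.4 FPKM in WT OVA. Its groups overlapped, and the difference of 0.43 (95% interval -0.09 to 0.96, adjusted p = 0.21, limma) did not pass. Il2rg (ENSMUSG00000031304, chromosome X, 101264378 to 101268255), the gamma chain shared with the receptors of interleukin-2 and interleukin-7, was at 35.8, 30.3 and 34.4 FPKM in DJ-1 KO OVA and at 25.3, 19.2 and 28.5 FPKM in WT OVA. Its groups did not overlap, and its difference of 0.47 (95% interval -0.01 to 0.95, adjusted p = 0.15, limma) did not pass. The log2 ratio of Il2rg to Il13ra1, the partner chains of the alternative receptor complexes, was 1.26, 0.588 and 0.629 in the DJ-1 KO OVA libraries and 0.081, -0.594 and 0.00154 in the WT OVA libraries. These ratios did not overlap, with a difference of 0.997 (exact permutation test, two-sided p = 0.1, adjusted 0.2, n = 3 each).

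Jak1 and Jak3, kinases that bind these receptors, rose in DJ-1 KO OVA. Jak1 (ENSMUSG00000028530, chromosome 4, 101152367 to 101265282), which binds the Il4ra tail, was at 56.9, 33.1 and 54.5 FPKM in DJ-1 KO OVA, against 22.5, 25.7 and 29.5 FPKM in WT OVA. DJ1_KO_OVA_266 was the lowest of the DJ-1 KO OVA libraries and still lay above WT OVA. Jak1 rose by 0.85 (SE 0.24, 1.80-fold, adjusted p = 0.046, limma). Jak3 (ENSMUSG00000031805, chromosome 8, 71676296 to 71690575), the kinase of the gamma chain in lymphoid and myeloid cells, was at 10.7, 16.4 and 14 FPKM in DJ-1 KO OVA, against 9.27, 6.03 and 7.54 FPKM in WT OVA. It rose by 0.80 (SE 0.24, 1.75-fold, adjusted p = 0.048, limma), with DJ1_KO_OVA_263 the lowest of the DJ-1 KO OVA libraries. Insl3 shares 1362 bases and the strand of Jak3, and Gm20489 shares the strand and all 3878 bases of the Il2rg locus. They had at most 21 reads (Insl3) and 1 read (Gm20489) in a library, and reads of the shared parts cannot be assigned with certainty. Gm12785 shares 172 bases and the strand of Jak1, with at most 1 read. The strand setting was not given, so overlaps on the opposite strand count too. There, Gm17040 and Gm17041 share 1167 and 1459 bases of Cish, with at most 10 and 0 reads. Gm44876 shares 1342 bases of Il4ra, with at most 1 read, and Nab2 shares 40 bases of Stat6. Gm24468 and Raver2 share 104 and 4 bases of Jak1. Tyk2, the kinase of the Il13ra1 tail, was at 8.76, 15 and 14.5 FPKM in DJ-1 KO OVA and at 11.6, 7.37 and 9.54 FPKM in WT OVA. Its groups overlapped and it did not pass (log2 difference 0.39, adjusted p = 0.3, limma).

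Stat6 (ENSMUSG00000002147, chromosome 10, 127642986 to 127660957) was at 35, 39.8 and 43.7 FPKM in DJ-1 KO OVA and at 34, 32.1 and 34.1 FPKM in WT OVA. Its groups did not overlap, but the difference of 0.23 (95% interval -0.21 to 0.67, adjusted p = 0.42, limma) did not pass.

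The feedback inhibitors Cish and Socs1 rose as well. Cish (ENSMUSG00000032578, chromosome 9, 107296026 to 107302784), an SH2 protein known as an early target of STAT5, was at 11.9, 27.9 and 23.2 FPKM in DJ-1 KO OVA, against 11, 4.49 and 6.98 FPKM in WT OVA. DJ1_KO_OVA_263 was only just above WT OVA replicate 5, and the fitted rise was 1.43 (SE 0.37, 2.69-fold, adjusted p = 0.035, limma). Socs1 (ENSMUSG00000038037, chromosome 16, 10782240 to 10785536), which inhibits Janus kinases directly and is induced by interferon gamma and by interleukin-4, was at 8.86, 12.3 and 5.62 FPKM in DJ-1 KO OVA, against 4.48, 3.03 and 4.62 FPKM in WT OVA. It rose 2.01-fold (log2 difference 1.01, SE 0.27, adjusted p = 0.037, limma), and the libraries did not overlap. Socs3 (ENSMUSG00000053113, chromosome 11, 117966079 to 117970047), the inhibitor best known from interleukin-6 signaling through STAT3, was at 93.4, 232 and 177 FPKM in DJ-1 KO OVA and at 119, 67.2 and 82.6 FPKM in WT OVA. DJ1_KO_OVA_263 lay inside the WT OVA range, and Socs3 did not pass (log2 difference 0.84, SE 0.35, adjusted p = 0.12, limma). Without that library its difference was 1.21 (adjusted p = 0.043, limma). The ratio of Socs3 to Socs1 overlapped between the groups, with log2 means of 4.12 ± 0.768 and 4.29 ± 0.283 (SD, n = 3) in DJ-1 KO OVA and WT OVA.

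**Figure D2:**
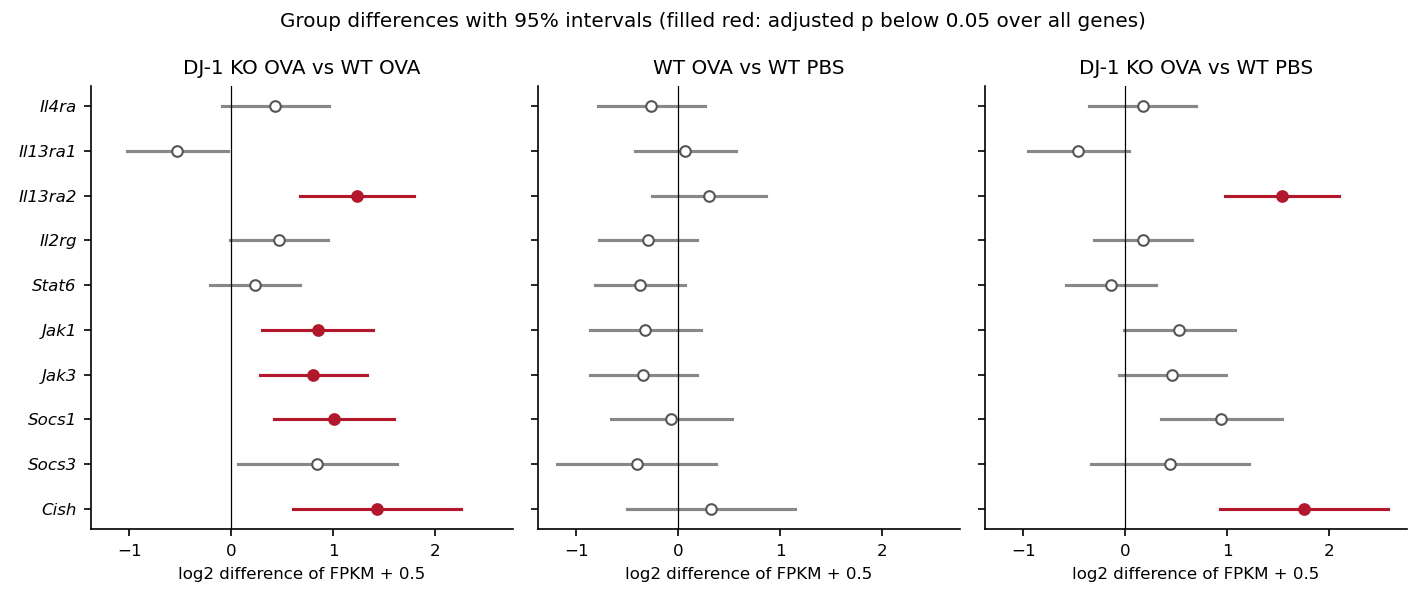
Log2 differences of the 10 genes in the 3 comparisons (points) with 95% intervals (lines), on the log2(FPKM + 0.5) scale, filled where the adjusted p was below 0.05 over all genes. In DJ-1 KO OVA against WT OVA 5 genes passed, in WT OVA against WT PBS 0, and in DJ-1 KO OVA against WT PBS 2, Il13ra2 and Cish.

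The number of calls depended on the fit. With no filter on low values, or with only the 6 compared libraries in the fit, Il13ra2 alone of the 10 genes passed, and Jak1, Jak3, Socs1 and Cish had adjusted p values of 0.084 to 0.093 and 0.064 to 0.077 (limma). Without WT OVA replicate 6, 0 of the 10 genes passed, with 448 of all genes called in place of 2510, and 1 passed without WT OVA replicate 5 (Cish) or 9 (Il13ra2), DJ1_KO_OVA_267 (Socs1) or WT PBS replicate 1 (Il13ra2). Il13ra2 missed the threshold without DJ1_KO_OVA_267 and WT OVA replicates 5 and 6 (adjusted p = 0.069, 0.055 and 0.065, limma). Cish missed it without DJ1_KO_OVA_267, WT OVA replicates 6 and 9 and WT PBS replicate 1 (adjusted p = 0.13, 0.1, 0.097 and 0.054, limma). Socs1 missed it without DJ1_KO_OVA_263, any single WT OVA library or WT PBS replicate 1 (adjusted p = 0.06 to 0.11, limma). Jak3 passed only without DJ1_KO_OVA_263 or WT PBS replicates 2 or 3, and Jak1 only without DJ1_KO_OVA_266 or WT PBS replicate 3. The differences of these 5 genes were positive in each of the 9 fits that left out a library, from 0.66 for Jak3 to 1.78 for Cish. After rescaling to equal FPKM sums 9 of the 10 passed as higher, all but Il13ra1, while the share of higher among all called genes went to 88% in place of 41.9%.

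**Figure D3:**
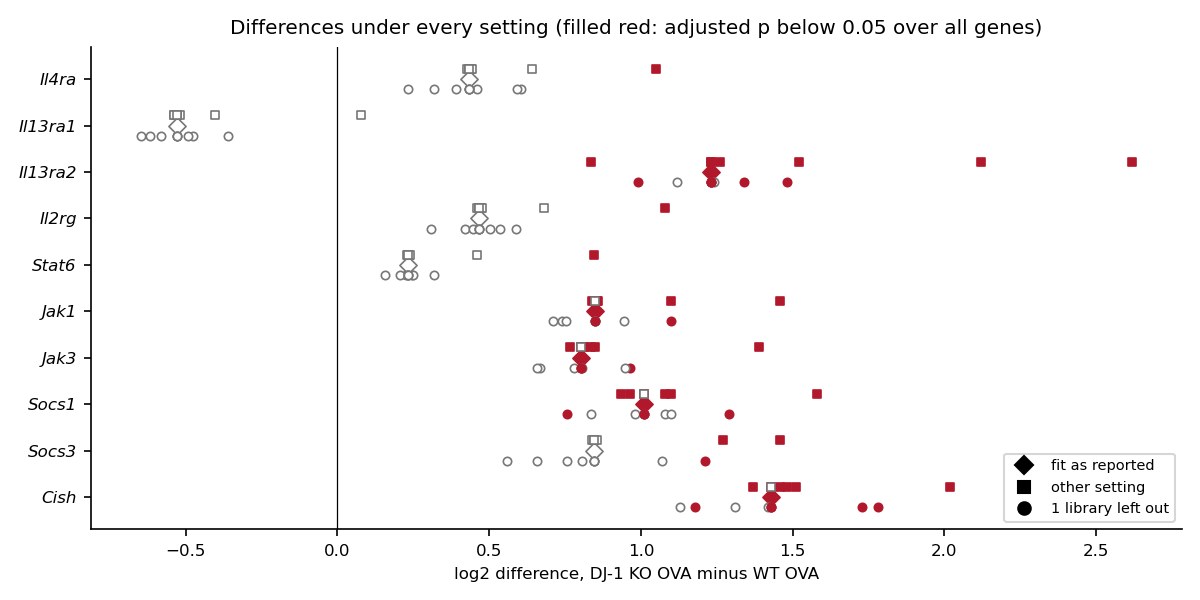
Log2 difference of each gene between DJ-1 KO OVA and WT OVA in the fit as reported (diamonds), under other settings (squares) and with 1 library left out (circles), filled red where the adjusted p was below 0.05. The differences of Il13ra2, Jak1, Jak3, Socs1 and Cish stay above 0 throughout, while the threshold is crossed in some settings and not in others, and Il13ra1 crosses 0 under 1 setting.

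Cell type markers moved in the same comparison. The 7 T cell markers summed to 171 to 519 FPKM in DJ-1 KO OVA and 98.8 to 155 FPKM in WT OVA, with 3 of 7 higher, and the 5 markers of type 2 innate lymphoid cells to 70.8 to 107 and 54.1 to 74.8 FPKM, with 3 of 5 higher. The sums of the innate lymphoid markers overlapped between the groups. Most of them came from Areg, at 52.9 to 76.5 FPKM in DJ-1 KO OVA and 47 to 68 FPKM in WT OVA. The 6 fibroblast markers summed to 379 to 829 FPKM in DJ-1 KO OVA and 252 to 282 FPKM in WT OVA, with 3 of 6 higher. The collagens Col1a1, Col1a2 and Col3a1 averaged 190, 93.5 and 190 FPKM in DJ-1 KO OVA, against 56.7, 35.1 and 40.1 FPKM in WT OVA, without overlap. Dcn went the other way, also without overlap, at 73.8 ± 29 FPKM in DJ-1 KO OVA and 116 ± 18.2 FPKM in WT OVA (SD, n = 3). The remaining fibroblast markers overlapped between DJ-1 KO OVA and WT OVA. B cell markers summed to 85.4 to 215 and 268 to 357 FPKM in the same groups, with 3 of 5 lower, and neutrophil markers to 1350 to 4310 and 12900 to 19100 FPKM, with 5 of 6 lower. Among epithelial cells, alveolar type 2 markers summed to 6260 to 13400 FPKM in DJ-1 KO OVA and 32200 to 41100 FPKM in WT OVA, with 1 of 6 lower. Most of these sums came from Sftpc, at 5090 to 11600 and 30200 to 38400 FPKM, while Slc34a2 overlapped, at 153 to 330 and 162 to 283 FPKM. Alveolar type 1 markers summed to 99.6 to 296 and 405 to 507 FPKM in the same groups, with 3 of 4 tested lower. Club cell markers had 1 of 4 lower, and goblet cell markers summed to 974 to 1880 FPKM in DJ-1 KO OVA and 78.2 to 608 FPKM in WT OVA, with 2 of 5 higher. Alveolar macrophage markers overlapped in their sums, at 556 to 2290 and 1200 to 2230 FPKM, with 2 of 6 lower. Most of these sums came from Ear2, at 463 to 2150 FPKM in DJ-1 KO OVA and 853 to 1760 FPKM in WT OVA. The mean log2 value of the 6 markers did not overlap, at 4.28, 5.42 and 5.42 in DJ-1 KO OVA and 6.56, 6.11 and 6.6 in WT OVA. Monocyte and interstitial macrophage markers overlapped with 1 of 7 lower. The part of the cell types in the differences of the receptor and signaling genes was not tested. In bulk RNA, fewer cells of a type and less RNA per cell cannot be told apart.

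Genes around the pathway were described from lists chosen with earlier results of these data known, so their counts are no independent evidence. The ligand Il13 was at 6.78, 11.7 and 13.3 FPKM in DJ-1 KO OVA, against 2.81, 0.761 and 1.94 FPKM in WT OVA and 0.466, 0.404 and 0.243 FPKM in WT PBS. Il4 was at 0.947, 2.66 and 2.5 FPKM in DJ-1 KO OVA and 1.66, 0.605 and 0.829 FPKM in WT OVA. The log2 ratio of Il13 to its decoy receptor Il13ra2 averaged 2.75 ± 0.336 in DJ-1 KO OVA, 1.68 ± 0.576 in WT OVA and 0.66 ± 0.11 in WT PBS (SD, n = 3 each). With 0.5 added, the 3 groups did not overlap in this ratio, and each of the 3 differences had an exact permutation p of 0.1 (two-sided, adjusted 0.2). With 0.1 added in place of 0.5, the difference between DJ-1 KO OVA and WT OVA was 0.46 in place of 1.07 and the exact permutation p was 0.3. Il13ra2 was below 0.5 FPKM in every wild-type library. With nothing added, mean FPKM in DJ-1 KO OVA over WT OVA was 5.78 for Il13 and 6.30 for Il13ra2. The separation of these 2 groups therefore rests on the added value. Over WT PBS the same ratios were 28.6 and 23.5 in DJ-1 KO OVA, and 4.95 and 3.74 in WT OVA.

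**Figure D4:**
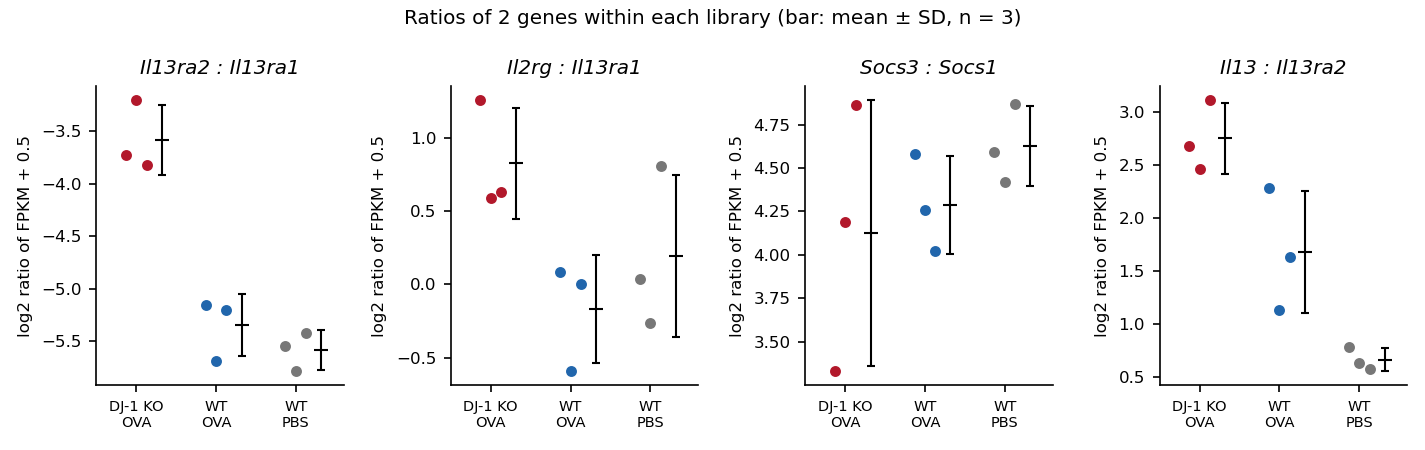
Log2 ratio of the FPKM + 0.5 of 2 genes in each library (points), with group mean and SD (bars, n = 3). Il13ra2 to Il13ra1 averaged -3.59 in DJ-1 KO OVA, -5.35 in WT OVA and -5.59 in WT PBS, and Socs3 to Socs1 overlapped between DJ-1 KO OVA and both wild-type groups. Il13ra2 was below the added 0.5 FPKM in every wild-type library.

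Of 8 other Janus kinases and STAT factors, 3 rose in DJ-1 KO OVA relative to WT OVA and 0 fell. Jak2, a kinase that can act at the Il13ra1 tail, was at 28.9 ± 10 FPKM in DJ-1 KO OVA and 10.8 ± 0.784 FPKM in WT OVA (SD, n = 3; 2.51-fold, adjusted p = 0.012, limma). Stat5a, a factor activated by gamma-chain cytokines, was at 7.33 ± 0.271 and 3.58 ± 0.721 FPKM (1.94-fold, adjusted p = 0.023), and Stat2, of the interferon response, at 5.62 ± 0.178 and 2.98 ± 0.397 FPKM (1.77-fold, adjusted p = 0.029). Of the 6 other receptor chains that pair with Il2rg or with its partners, 4 rose and 0 fell: Il2ra (2.33-fold), Il9r (2.20-fold), Il2rb (1.83-fold) and Il7r (1.77-fold), which are subunits of the interleukin-2, interleukin-9 and interleukin-7 receptors. Both counts were 0 without WT OVA replicate 6, and the receptor count was also 0 without DJ1_KO_OVA_267. The median difference was 0.50 for the kinases and STAT factors and 0.85 for the receptor chains. Among all genes tested, 5.93% were called higher in this comparison and 8.24% lower.

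Among 13 other SOCS and PIAS proteins and phosphatases of the pathway 1 rose, the growth hormone inhibitor Socs2 (9.05 ± 1.07 FPKM in DJ-1 KO OVA and 5.8 ± 0.962 FPKM in WT OVA, SD, n = 3, adjusted p = 0.048, limma), and 7 of the 9 fits that left out a library did not call any of this list: those without DJ1_KO_OVA_263 or DJ1_KO_OVA_267, without WT OVA replicate 5, 6 or 9, and without WT PBS replicate 1 or 2. Of the 7 genes of the insulin receptor substrate branch, a second arm of interleukin-4 signaling, 0 passed in limma and 0 in limma-voom, and 1 had an unadjusted p below 0.05. The 2 with the smallest p were Pik3r1 (1.73-fold, adjusted p = 0.063, limma) and Pik3ca (1.46-fold, adjusted p = 0.17). Without DJ1_KO_OVA_266, 3 genes of this branch passed as higher. Of 7 genes known to be induced by STAT5, Il2ra and Socs2 rose, as above. Of 14 genes of the interleukin-6 and interleukin-10 families, which induce Socs3, 1 rose, the shared receptor chain Il6st (22.9 ± 4.99 and 11.9 ± 1.27 FPKM, adjusted p = 0.028, limma). That list had 0 higher without DJ1_KO_OVA_263, DJ1_KO_OVA_267, WT PBS replicate 1 or any single WT OVA library, and the STAT5 list had 0 without DJ1_KO_OVA_267 or WT OVA replicate 6. In the interferon gamma axis, which induces Socs1, 0 of 8 passed in limma or limma-voom and 3 had an unadjusted p below 0.05. The smallest p values there belonged to Ciita, the activator of MHC class II genes (1.65-fold, adjusted p = 0.1, limma), and the chemokine Cxcl9 (0.461-fold, adjusted p = 0.11), and 1 gene of this axis passed as higher without DJ1_KO_OVA_263. The list medians were -0.01 for the interleukin-6 and interleukin-10 families and -0.05 for the interferon gamma axis. The counts of 1 of 13 and 1 of 14 lie near the share of all genes called higher in this comparison, 5.93%.

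Of the 22 tested genes known to be induced by interleukin-4 or interleukin-13 through STAT6, 10 rose in DJ-1 KO OVA relative to WT OVA and 0 fell, and their median log2 difference was 1.85. They included the mannose receptor Mrc1 of alternatively activated macrophages, at 91 ± 43.6 FPKM in DJ-1 KO OVA and 23.7 ± 2.56 FPKM in WT OVA (SD, n = 3; 3.54-fold, adjusted p = 0.0079, limma). The eosinophil chemokine Ccl11 was at 58.3 ± 4.24 and 15.2 ± 4.27 FPKM in the same groups (3.85-fold, adjusted p = 0.0028), and the transcription factor Irf4 at 19.4 ± 11.9 and 3.71 ± 0.863 FPKM (4.29-fold, adjusted p = 0.01). The others were Chil4, Arg1, Ccl24, Muc5ac, Slc26a4, Postn and Gata3. With 1 library left out the number ran from 6, without DJ1_KO_OVA_267, to 13, and it was 20 after rescaling to equal FPKM sums. In the fit as reported, 5.93% of all genes tested were called higher in this comparison.

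**Figure D5:**
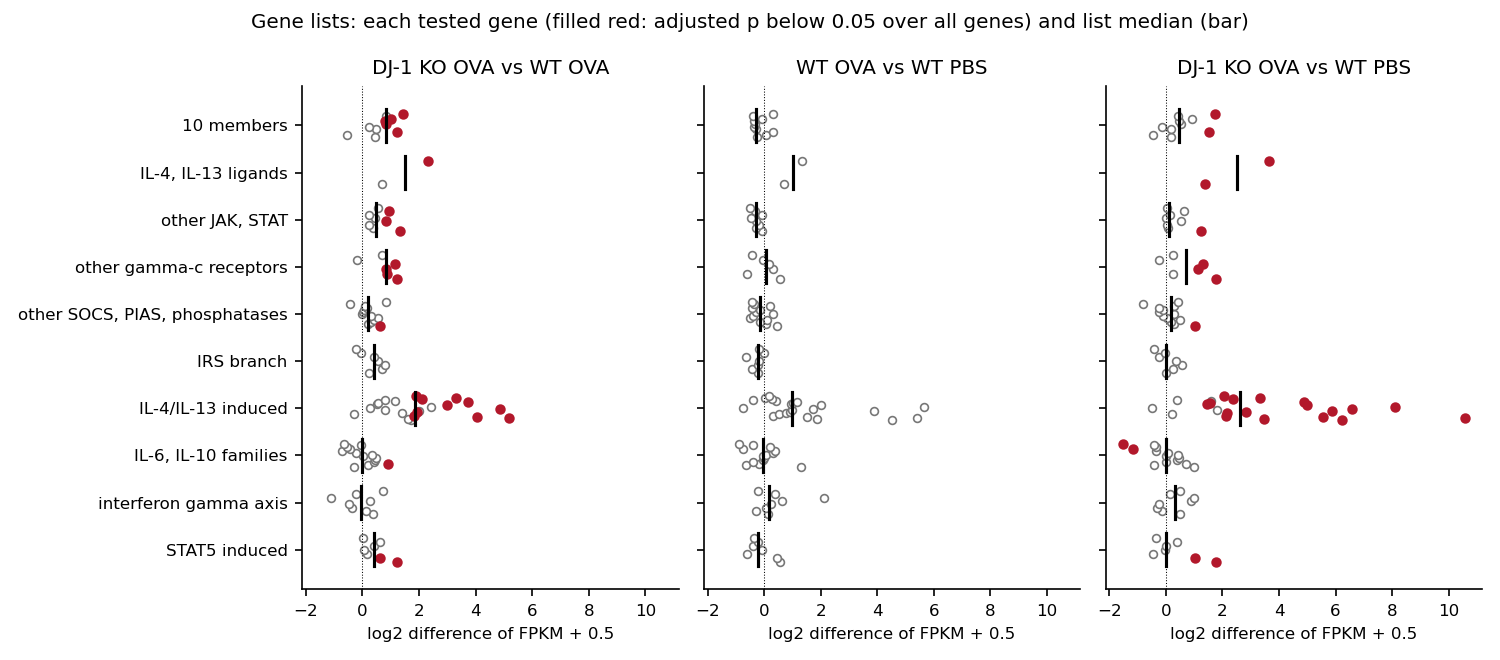
Log2 difference of every tested gene in the 10-gene set and in 9 lists of the surrounding pathway (points), filled where the adjusted p was below 0.05 over all genes, with the list median (bar). In DJ-1 KO OVA against WT OVA 10 of 22 genes induced by interleukin-4 or interleukin-13 passed as higher, in WT OVA against WT PBS 0, and in DJ-1 KO OVA against WT PBS 17. Of all genes tested, 5.93%, 0.00564% and 4.07% passed as higher in these comparisons.

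In WT OVA lungs compared with WT PBS lungs, 0 of the 10 genes passed in limma and 0 in limma-voom, and 0 had an unadjusted p below 0.05, where 6.47% of all genes did. A single gene, 0.00564% of those tested, was called in this comparison. The differences ran from -0.40 for Socs3 to 0.33 for Cish, with a median of -0.28, and 3 were positive, where 50.5% of all genes were. Stat6 was the gene whose groups did not overlap, where 14.8% of all genes did not, 7.25% higher and 7.52% lower. It was at 34, 32.1 and 34.1 FPKM in WT OVA and at 44.9, 35.1 and 52 FPKM in WT PBS (difference -0.37, 95% interval -0.82 to 0.07, adjusted p = 0.73, limma). Il4ra was at 36.4, 31.4 and 37.8 FPKM in WT PBS, around the values after ovalbumin (difference -0.26, 95% interval -0.79 to 0.26). Il13ra2 rested on 4 to 13 reads a library in WT OVA and 0 to 4 in WT PBS. Its ratio of mean FPKM was 3.74, its difference on the log2(FPKM + 0.5) scale was 0.31 (95% interval -0.25 to 0.86, adjusted p = 0.75, limma), and on recovered reads it was 2.33 (SE 1.05, adjusted p = 0.72, limma-voom). Il13 and Il4 did not overlap between these groups, with differences of 1.32 and 0.69 (adjusted p = 0.73 for both, limma). In each of the 9 surrounding lists 0 genes passed in limma and in limma-voom. Of the 22 genes induced by interleukin-4 or interleukin-13, 11 had an unadjusted p below 0.05, and 4 passed without WT OVA replicate 6.

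In DJ-1 KO OVA lungs compared with WT PBS lungs, which differ in both genotype and challenge, 2 of the 10 genes rose, Il13ra2 and Cish, and 0 fell. In this comparison 8.54% of all genes were called, 4.07% as higher and 4.47% as lower. An unadjusted p below 0.05 was reached by 3 of the 10 genes and by 26.4% of all genes, and 8 of the 10 differences were positive, against 50% over all genes. It shares the DJ-1 KO OVA libraries with the first comparison and the WT PBS libraries with the second. Il13ra2 rose by 1.54 on the log2(FPKM + 0.5) scale (SE 0.25, adjusted p = 0.0073, limma), and the ratio of mean FPKM was 23.5, over a WT PBS mean of 0.049 FPKM from 3, 4 and 0 reads. It passed in each of the 9 fits that left out a library. Cish, at 6.21, 3.93 and 6.84 FPKM in WT PBS, rose 3.37-fold (log2 difference 1.75, SE 0.37, adjusted p = 0.02, limma). Its call was lost without DJ1_KO_OVA_267 or WT PBS replicate 1 or 2 (adjusted p = 0.081, 0.061 and 0.083). Socs1, at 3.9, 4.17 and 4.53 FPKM in WT PBS, did not overlap with DJ-1 KO OVA and did not pass (log2 difference 0.94, SE 0.27, adjusted p = 0.055, limma; 0.044 in limma-voom). The groups did not overlap for 3 of the 10 genes, all higher, against 25.6% of all genes, 12.7% higher and 12.9% lower. Jak1 and Jak3 differed by 0.53 and 0.46 (adjusted p = 0.2 and 0.24), and both overlapped between these groups.

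Of the 22 genes induced by interleukin-4 or interleukin-13, 17 rose in DJ-1 KO OVA relative to WT PBS and 0 fell, among them the mucus cell transcription factors Spdef (2.75-fold, adjusted p = 0.0062, limma) and Foxa3 (2.96-fold, adjusted p = 0.0042). Both ligands rose, Il13 12.4-fold and Il4 2.63-fold (adjusted p = 0.00058 and 0.031, limma). Il2ra, Il9r, Il7r, Jak2 and Socs2 also rose, by 3.42-fold, 2.51-fold, 2.19-fold, 2.39-fold and 2.06-fold. With 1 library left out, 15 to 19 of the induced genes passed as higher. In the fit as reported, 4.07% of all genes tested were called higher in this comparison. A single ligand passed without DJ1_KO_OVA_267 or any single WT PBS library, 1 receptor chain without DJ1_KO_OVA_267 or WT PBS replicate 1, and Jak2 did not pass without WT PBS replicate 1 or 2. In the interleukin-6 and interleukin-10 families 2 fell, the granulocyte colony-stimulating factor receptor Csf3r (51.4 ± 9.2 and 150 ± 33.9 FPKM in DJ-1 KO OVA and WT PBS, SD, n = 3, adjusted p = 0.0059, limma) and the interleukin-10 receptor Il10ra (36.3 ± 11.9 and 81.2 ± 22.8 FPKM, adjusted p = 0.038). Markers of neutrophils, cells known for high Csf3r, summed to 1350 to 4310 FPKM in DJ-1 KO OVA and 8240 to 24400 FPKM in WT PBS, and their part in this difference was not tested.

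Levels per length placed Socs3 highest and Il13ra2 lowest of the 10 genes in each group. In DJ-1 KO OVA the mean FPKM fell in the order Socs3 (168 ± 69.9), Jak1 (48.2 ± 13.1), Il4ra (40.5 ± 10.9), Stat6 (39.5 ± 4.37), Il2rg (33.5 ± 2.83), Cish (21 ± 8.22), Il13ra1 (18.9 ± 3.83), Jak3 (13.7 ± 2.86), Socs1 (8.92 ± 3.33) and Il13ra2 (1.15 ± 0.547). Neighbours overlapped in this order from Jak1 to Il2rg and from Cish to Socs1. In WT OVA the order was Socs3, Stat6, Il4ra, Il13ra1, Jak1, Il2rg, Jak3, Cish, Socs1 and Il13ra2, with means of 89.6, 33.4, 29.6, 27.2, 25.9, 24.3, 7.61, 7.49, 4.04 and 0.183 FPKM, and neighbours overlapped from Stat6 to Il2rg and from Jak3 to Socs1. Il13ra1 had rank 4 in WT OVA, rank 6 in WT PBS and rank 7 in DJ-1 KO OVA. In each group its range overlapped with that of the gene ranked just above it. The gene length used for Cish, 6419 bases of a locus of 6759, holds nearly all of its introns, so its level per length is low for its read number. The length used for Socs1 was 2908 bases of a locus of 3297, and the part of introns in it was not determined.

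The 10 genes did not vary as a block across the 9 libraries. Given as a description, the closest pair was Il4ra and Socs3 (Pearson r = 0.952 on the log2 scale), which had the same rank order of the 9 libraries, while Il13ra1 was negatively related to Socs1 (r = -0.744) and Il2rg (r = -0.709). The points are libraries of 3 groups, so such values include the group differences. Among 11718 genes with a mean of at least 1 FPKM, those most like Il13ra2 were Creld2, Ocstamp and Pdia4 (r = 0.982, 0.972 and 0.971), and those most like Cish were Dhcr7, Kdelr2 and Plxnd1 (r = 0.981, 0.979 and 0.977). Those most like Jak1 were Exoc2, Mcm9 and Pik3c3 (r = 0.995, 0.989 and 0.987), and those most like Stat6 were Flna, Klhl18 and Arrb1 (r = 0.993, 0.99 and 0.988).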

How the data were processed

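The authors deposited 1 table of FPKM for 9 libraries that also lists each gene's symbol, position and length, per the file headers. A TruSeq kit was used on total RNA, per the labels' protocols. Trimmomatic, HISAT2 and HTSeq and the build GRCm38.p6 are named in the submitters' processing notes, with versions and strand setting not given in the sources used here. FPKM times gene length was a whole multiple of 1 step for 100% of values above 0 (tolerance 0.01 reads), so reads were recovered, and the library sizes the authors divided by followed median-of-ratios size factors.

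Values were tested as log2(FPKM + 0.5) for 17716 genes with a mean of at least 0.2 FPKM, in 1 limma-trend fit of all 9 libraries (limma 3.58.1, R 4.3.3), with Benjamini-Hochberg adjustment over all genes. Fold changes on this scale understate changes of low genes. Ratios of 2 genes were compared by exact permutation. Named genes were the 10 members, Park7, the called genes of 9 pathway lists or, in lists with 0 called, the 2 with the smallest p, and the 3 genes most correlated with each member, of which the text gives those of 4 members. Single genes of the lists were named beyond this to carry a value. The members and lists were chosen with earlier results of these data known. Promoter sequences are from RefSeq (GRCm38.p6), where all 10 symbols matched. Overlapping genes were taken from GENCODE M21 (GRCm38). Alternatives changed the pseudocount, filter, scaling, test, libraries in the fit and single libraries left out. The counts of the pathway lists under these alternatives, and the paired GAAA pattern, were chosen after seeing the data.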

Additional observations from a re-analysis of the deposited data

How the results depend on the processing

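Of 10 genes in 3 comparisons, 5 differences that were not called changed sign. Il13ra1 was at 0.0773 in DJ-1 KO OVA against WT OVA and at -0.238 in WT OVA against WT PBS after rescaling to equal FPKM sums, and Stat6 in DJ-1 KO OVA against WT PBS was at 0.163 with that scaling and 0.0198 with quantile normalization. With single libraries left out, Socs1 ran from -0.162 to 0.105 and Il13ra1 from -0.0778 to 0.218 in WT OVA against WT PBS, and Il4ra from -0.0287 to 0.344 in DJ-1 KO OVA against WT PBS. The log2 ratio of Socs3 to Socs1 in DJ-1 KO OVA against WT OVA ran from -0.532 to 0.234. Between DJ-1 KO OVA and WT OVA, the called genes and called members numbered 645 and 1 with no filter (more genes tested), 5034 and 9 with equal FPKM sums, and 1131 and 1 with only the 6 libraries compared, and with libraries left out they ran from 286 to 5694 and from 0 to 5. For WT OVA against WT PBS the single called gene became 2 with no filter and 0 with a pseudocount of 0.1, a minimum mean of 1 FPKM, equal sums, quantile normalization, limma-voom or the 6 libraries, and ran from 0 to 14 with libraries left out. Between DJ-1 KO OVA and WT PBS the same counts came to 669 and 1 with no filter, 700 and 2 with the 6 libraries, and ran from 436 to 3897 and from 1 to 3. Apart from the filter and the number of libraries, the cause was not tested. The share of higher among called genes in DJ-1 KO OVA against WT PBS was 69.1% with equal sums and 47.7% in the fit as reported. No paired analysis was possible because the groups share no replicate numbers. With 3 libraries a group, Il13ra2 in wild-type lungs rests on at most 13 reads a library.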
